A study of Canis lupus familiaris with 12 samples.

Results

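The ADAM and ADAMTS metalloproteases were taken as every gene whose single annotated symbol starts with ADAM and a number, with ADAMTS or with ADAMDEC. They came to 36 of the 15115 genes measured, read by 73 probe sets. The cells were MDCK II tet-off cells (Madin-Darby canine kidney), a dog line of kidney tubule origin that forms polarised sheets and, inside a gel, hollow cysts. The control group held 6 arrays of flat sheets from 2-dimensional (2D) type I collagen culture, and the experimental group held 6 arrays of cysts from 3-dimensional (3D) type I collagen culture. Both groups carried the tet-off construct of the line, were grown in medium with serum and G418, and were harvested on day 8 by collagenase digestion of the gels. Each array held the pooled RNA of 4 separate samples, and the labels do not say how pools were made up. The p-values therefore reflect only the spread among pools, which may be technical. All cells were of 1 line, so nothing here speaks to the spread between lines.

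ADAMs are mostly membrane-anchored proteases with a metalloprotease and a disintegrin domain, and those with an intact zinc-binding site cut growth factors, cytokine receptors and adhesion molecules from the cell surface, a process called ectodomain shedding. Several ADAMs have lost that site and act through adhesion, in sperm, the epididymis or the nervous system. ADAMTS proteases are secreted, carry thrombospondin repeats and cut matrix proteins such as versican, aggrecan and procollagens, while the ADAMTS-like proteins keep the repeats without the protease domain. In kidney epithelium ADAM10 and ADAM17 release ligands of the epidermal growth factor receptor and cut adhesion molecules, and the tissue inhibitors of metalloproteinases (TIMPs) block some of the catalytic members, each TIMP a different set.

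Gene levels are given as log2(intensity + 1), and a difference is the 3D mean minus the 2D mean on that scale. Errors beside a mean are SD over the 6 arrays of a group, and errors beside a difference are the standard error (SE) of the limma fit. A gene was called where limma's p, adjusted by the method of Benjamini and Hochberg over all 42924 probe sets tested, was under 0.05. Probe sets for bacterial and tag controls gave a background level for each array, which averaged 5.71 and ranged from 5.59 to 5.91. The range lay lower in 3D, at 5.59 to 5.71, than in 2D, at 5.67 to 5.91. Small falls of genes near background were not separated from that difference. A level of one gene was not set against that of another, because probe sets differ in brightness.

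Some features of the whole series touch these genes. The first principal component, which held 66.0% of the variance, separated 2D from 3D, and 2D replicate 6 and 3D replicate 2 stood apart from their groups on the second, which held 9.49%. The mean log2 ratio of 5′ to 3′ control probe sets for actin and GAPDH, a sign of RNA integrity, was -0.91 ± 0.14 in 2D and -0.54 ± 0.17 in 3D (SD, n = 6 per group; exact two-sided permutation test over all 924 assignments, p = 0.00866). Of the 3D arrays only replicate 2, at -0.88, lay within the 2D range of -1.09 to -0.75. Ratio and culture thus go together, and a fit with the ratio added cannot tell them apart. A call lost in that fit does not show which of them it came from. Of the 8 kidney epithelial markers measured, 8 lay above background on all 12 arrays, and their summed level was 14.81 to 14.98 in 2D and 15.05 to 15.15 in 3D. Intensities were summed, so the brightest probe sets weigh most. Singly, 4 of the 8 had a difference above 0 and 4 below. Of them 4 were called higher and 2 lower (50% and 25%, beside 19.8% and 22.9% of all genes). Summed levels were 8.76 to 9.01 in 2D and 8.68 to 8.84 in 3D for 7 fibroblast markers, with COL1A2 at background throughout. They were 8.59 to 8.75 and 8.45 to 8.61 for 5 endothelial markers, with PECAM1 at background, and 9.11 to 9.24 and 9.04 to 9.25 for 6 leukocyte markers, of which 5 lay above background on all arrays. In RNA of whole cultures, fewer cells of a type and less RNA per cell cannot be told apart.

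The comparison of cysts with sheets asks which genes differ with culture geometry. Among the metalloproteases ADAM28 was 2.04-fold and ADAMTS9 1.38-fold higher in 3D, while the other 34 members differed by less than 0.3. ADAM10, ADAM15, ADAMTSL5 and ADAMTS3 also passed the test as higher, each by under 0.3. ADAM2, ADAM21, ADAM23, ADAMTS5, ADAMTS14, ADAMTS16, ADAMTS20, ADAMTSL1 and ADAMTSL3 passed as lower, again each by under 0.3. In all, 6 of the 36 genes were higher, 9 were lower and 21 were not called.

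These shares were 16.7% higher and 25% lower, beside 19.8% and 22.9% of all genes (42.7% in either direction), so the family held about the background share of calls in each direction. The median difference of the family was -0.08, beside -0.05 over all genes. The direction of most members was down, with 27 differences below 0 (75%, beside 60.6% of all genes) and 9 above. The 2D and 3D arrays did not overlap for 3 members with 3D above (ADAM28, ADAMTS9 and ADAMTSL5) and for 2 with 3D below (ADAM23 and ADAMTS14), beside 13.2% and 9.49% of all genes.

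The count of lower members changed with the scaling and when the RNA ratio, which goes together with culture, was added to the fit. With each array centred on its median the split was 6 higher and 5 lower, and with quantile normalization it was 3 and 3. With the 5′ to 3′ ratio added to the fit, 4 of the 6 higher genes were called again (ADAM15, ADAM28, ADAMTS9 and ADAMTSL5) and 0 of the 9 lower genes. Calls over all genes went down in that fit as well, to 12.6% higher and 8.33% lower. Array weights gave 5 higher and 13 lower, and leaving out both outlying arrays 5 and 11. Leaving out 1 array at a time gave 4 to 6 higher and 5 to 10 lower, with 5 lower without 2D replicate 1, 2 or 6 or without 3D replicate 1, 3, 4 or 6.

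**Figure D1:**
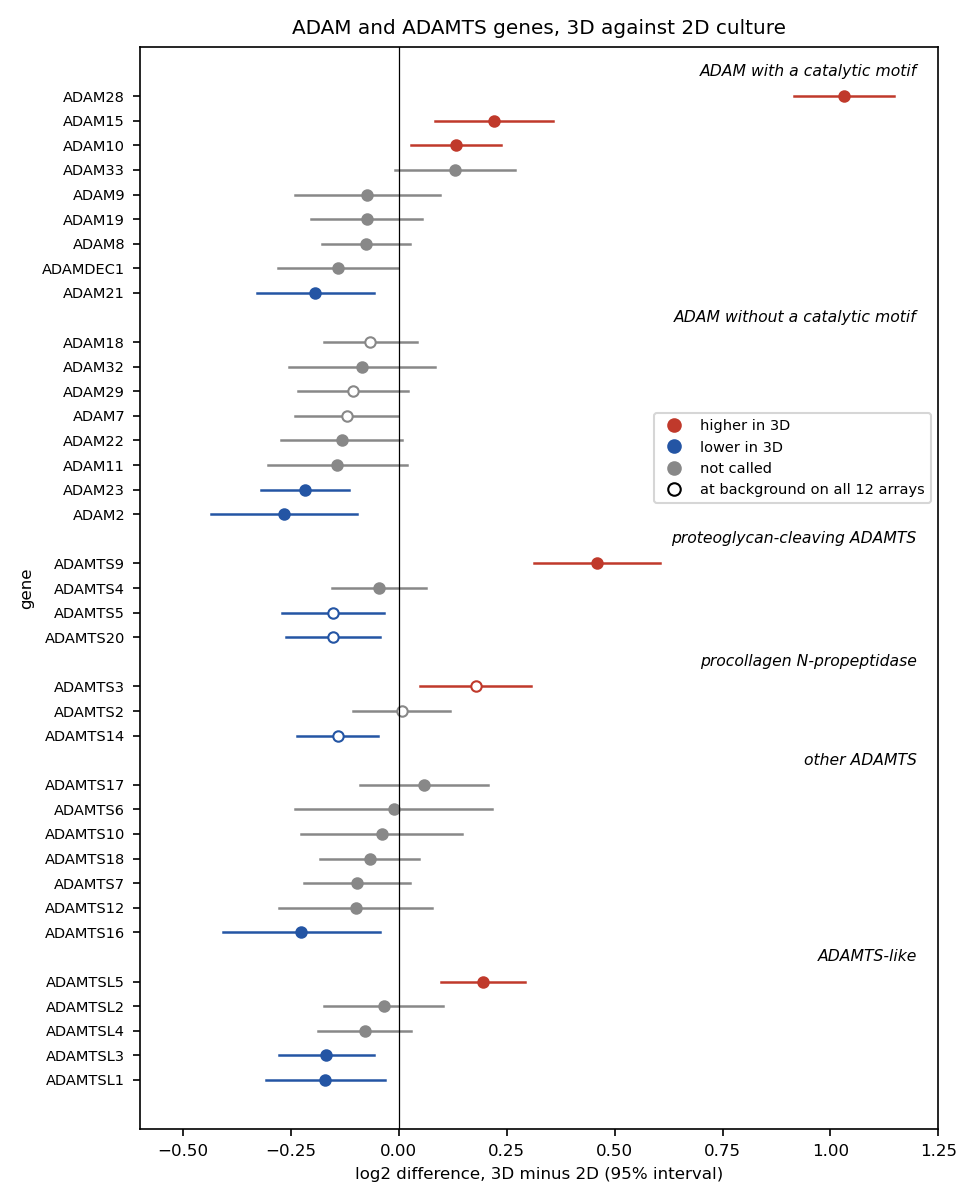
Difference between 3D and 2D on the log2 scale (horizontal axis) for each of the 36 ADAM, ADAMTS and ADAMTS-like genes, grouped by role, with bars for the 95% interval of the limma fit and colours for the call. ADAM28 at 1.03 and ADAMTS9 at 0.46 lie apart from the other 34 genes, all of which differ by less than 0.3.

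Members differed in how far they stood above background. Of the 36 genes, 18 lay above background on all 12 arrays (50%, beside 74.6% of all genes), 8 lay at or below it on all 12 (22.2%, beside 11.2%), and 10 lay above it on some arrays. The 18 bright genes held 5 of the higher calls and 2 of the lower ones, where 24.2% and 23.9% of all such genes were called. Of the 8 genes at background, ADAMTS3 was called higher and ADAMTS5, ADAMTS14 and ADAMTS20 lower, while 1.12% and 16.5% of all genes at background were called. The 10 genes in between gave 0 higher calls and 4 lower ones, where 11% and 22.9% of all such genes were called.

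The ADAMs with an intact catalytic site held the family's clearest change. Of 9 such genes measured, ADAM10, ADAM15 and ADAM28 were higher, ADAM21 was lower, and ADAM8, ADAM9, ADAM19, ADAM33 and ADAMDEC1 were not called. ADAM17, the tumour necrosis factor converting enzyme, and ADAM12 and ADAM20 were not analysed here.

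ADAM28, a protease first described in lymphocytes that also occurs in epithelia, ranged from 8.05 through a median of 8.19 to 8.38 in 2D and from 9.16 through 9.20 to 9.30 in 3D. Every 3D array lay above every 2D array, and the 6 3D arrays lay close together. The difference was 1.03 ± 0.05 (SE, n = 6 per group; limma, adjusted p = 5.4e-10), which is a 2.04-fold rise with a 95% interval on the log2 scale of 0.92 to 1.15. Only 1.85% of all genes were called higher with a change of at least 2-fold. The second probe set for ADAM28 rose from 7.87 to 8.84, by 0.97. The call was made in all 23 alternative analyses, with differences of 0.94 to 1.07. Of the 6 leukocyte markers measured, 5 had a difference below 0. Among them 3 were called lower and 1 higher (50% and 16.7%, beside 22.9% and 19.8% of all genes). PTPRC, the pan-leukocyte antigen CD45, fell from 6.08 to 5.91 (limma, adjusted p = 0.016), while CD14 alone rose, from 6.85 to 7.28. All cells were of 1 line, with no leukocytes in the design, and what these marker levels mean for ADAM28 was not tested.

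In the order of RefSeq genes of assembly UU_Cfam_GSD_1.0, ADAM7, ADAMDEC1 and ADAM28 follow each other with 0 protein-coding genes between them. Neither neighbour was called higher. ADAMDEC1, a short secreted relative known from gut macrophages, had a median of 5.91 in 2D and 5.76 in 3D, and its difference of -0.14 ± 0.07 was not called (SE; limma, adjusted p = 0.101). Without 3D replicate 2 the adjusted p was 0.024, which passes the threshold. ADAM7, an epididymal member, lay at background on all 12 arrays.

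ADAM10, the α-secretase that cleaves Notch, E-cadherin and the amyloid precursor protein, ranged from 11.71 through 11.89 to 11.94 in 2D and from 11.91 through 12.005 to 12.05 in 3D. Of the 3D arrays, 5 lay above every 2D array, and replicate 4 lay within the 2D range. The difference was 0.13 ± 0.05 (SE; limma, adjusted p = 0.043), a 1.10-fold rise. Its second probe set differed by 0.21 and was not called (adjusted p = 0.124). The call was lost without any 1 of 8 arrays (2D replicates 1, 3 and 6, and 3D replicates 1, 2, 3, 5 and 6), with adjusted p from 0.061 to 0.088.

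ADAM15, an ADAM that binds integrins through its disintegrin domain, ranged from 8.46 through 8.56 to 8.80 in 2D and from 8.74 through 8.82 to 8.93 in 3D. The 2D range reached into the 3D range. The difference was 0.22 ± 0.06 (SE; limma, adjusted p = 0.014), and the second probe set, at 0.14, was not called (adjusted p = 0.097). Quantile normalization ended the call (difference 0.11, adjusted p = 0.141).

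ADAM9, a widely expressed sheddase, had a median of 10.63 in 2D and 10.57 in 3D, and its difference of -0.07 ± 0.08 was not called (SE; limma, adjusted p = 0.481). The lowest array of each group was one of the pair that stood apart from the rest, with 10.26 in 2D replicate 6 and 10.27 in 3D replicate 2. With the 5′ to 3′ ratio in the fit the difference became -0.33 (adjusted p = 0.030). ADAM9 has ADAM32, ADAM2 and ADAM18 as near neighbours in the same RefSeq order, with 1 or 2 protein-coding genes between each, and none of the 4 was called higher.

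Of the other catalytic members, ADAM21, which is best known from testis, fell from 5.91 ± 0.07 to 5.71 ± 0.14, and its second probe set fell as well, by 0.23. The groups overlapped, 6 of 6 arrays lay above background in 2D and 4 of 6 in 3D, and the call (limma, adjusted p = 0.026) was lost without 2D replicate 2, 3D replicate 1 or 3D replicate 6. ADAM8, a leukocyte sheddase, differed by -0.08 ± 0.05 (adjusted p = 0.223), and ADAM19, which cuts neuregulins, by -0.07 ± 0.06 (adjusted p = 0.343). ADAM33, a member known from airway smooth muscle and fibroblasts, differed by 0.13 ± 0.07 and was not called on its brighter probe set (adjusted p = 0.128). On its other probe set ADAM33 rose from 6.69 to 6.98, by 0.30 (adjusted p = 0.003).

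**Figure D2:**
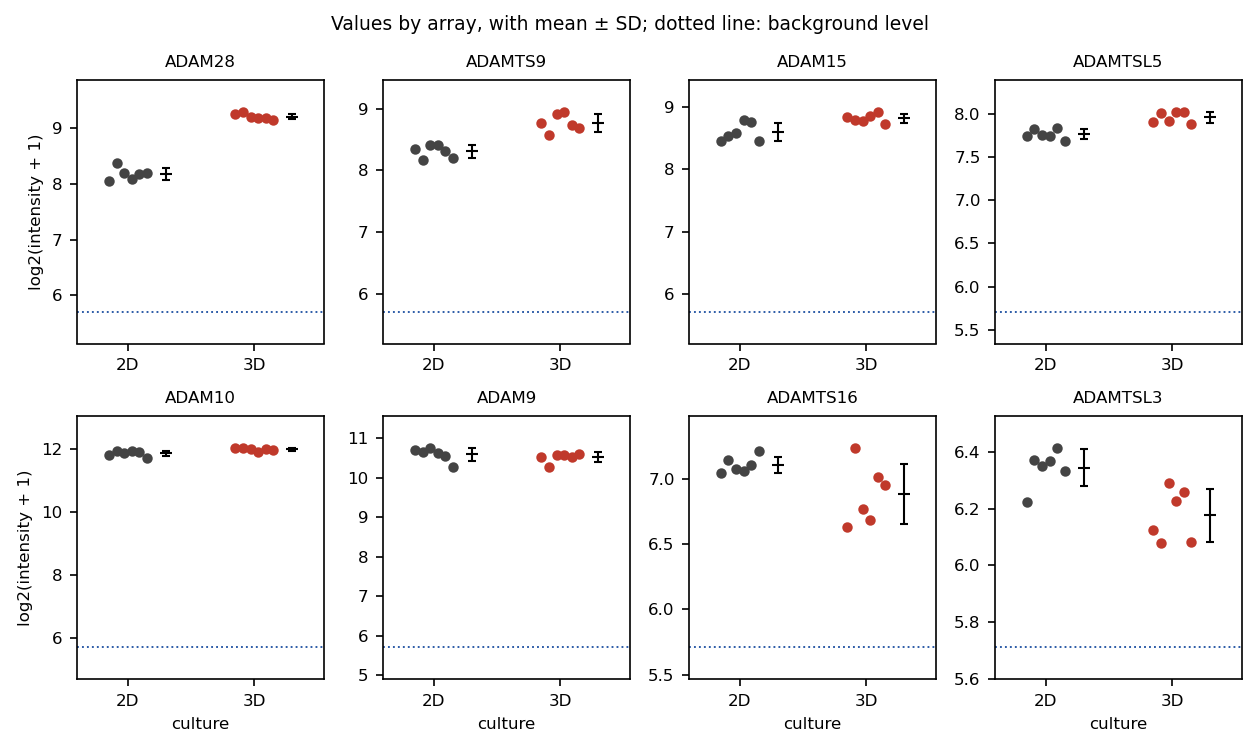
Level on the log2(intensity + 1) scale (vertical axis) on each of the 6 2D and 6 3D arrays for single members of the family, with mean ± SD beside the points and a dotted line at the mean background level of 5.71. ADAM28 and ADAMTS9 show every 3D array above every 2D array, while ADAM9 and ADAM10 overlap between the groups.

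The 8 ADAMs without a catalytic site were all lower in mean in 3D, by 0.07 to 0.27. Differences were below 0 for 60.6% of all genes and for 81.6% of genes at background on all 12 arrays. Of these 8 ADAMs, 1 lay above background on all 12 arrays and 3 lay at or below it on all 12. ADAM2 and ADAM23 alone passed the test. ADAM2, the fertilin subunit that sperm use to bind the egg, lay above background on 3 of 6 arrays in 2D and on 0 of 6 in 3D. It was called lower (limma, adjusted p = 0.015), and its bound of at least 1.07-fold was taken against the background of the 3D arrays. ADAM23, a neuronal receptor for LGI proteins, likewise lay above background on 3 of 6 and 0 of 6 arrays. It ranged from 5.66 to 5.80 in 2D and from 5.37 to 5.61 in 3D. ADAM23 was called lower (limma, adjusted p = 0.002), with a bound of at least 1.06-fold against the 3D background. Its second probe set fell by 0.19 with overlapping groups (adjusted p = 0.019). The third, at background on all 12 arrays, went the other way by 0.11 and was not called (adjusted p = 0.125). The background itself ranged from 5.67 to 5.91 in 2D and from 5.59 to 5.71 in 3D. The 2D means, 5.75 for ADAM2 and 5.74 for ADAM23, lay within the 2D background range. These bounds therefore cannot be told apart from the difference in background, and no larger fold can be stated.

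ADAM22, the related LGI receptor of synapses, lay above background on all 12 arrays at 6.16 ± 0.15 in 2D and 6.03 ± 0.08 in 3D, and was not called (limma, adjusted p = 0.123). ADAM11, a further neuronal member, had a difference of -0.14 ± 0.08 (adjusted p = 0.148), and ADAM32, known from testis, one of -0.09 ± 0.08 (adjusted p = 0.407). ADAM7, ADAM18 and ADAM29, which are known from the epididymis and testis, lay at background on all 12 arrays, with single values from 4.77 to 5.42.

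Of the 4 proteoglycan-cleaving ADAMTS proteases measured, 1 was higher, 2 were lower and 1 was not called. ADAMTS9, which cuts versican and aggrecan, ranged from 8.17 through a median of 8.33 to 8.42 in 2D and from 8.57 through 8.75 to 8.94 in 3D. Every 3D array lay above every 2D array, and the lowest 3D value was that of replicate 2. The difference was 0.46 ± 0.07 (SE, n = 6 per group; limma, adjusted p = 6.5e-05), a 1.38-fold rise, and the second probe set rose by 0.24 (adjusted p = 0.045). All 23 alternatives kept the call of ADAMTS9, with differences of 0.33 to 0.50 and a highest adjusted p of 0.038.

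ADAMTS20, the closest relative of ADAMTS9, lay at background on all 12 arrays, with means of 5.25 in 2D and 5.10 in 3D (limma, adjusted p = 0.029). ADAMTS5, the main aggrecanase of cartilage, also lay at background, at 5.50 and 5.34 (adjusted p = 0.042). These calls concern signal at the level of sequences absent from the dog, which itself lay lower in 3D, so no fold is given. Both calls were lost without many single arrays, 7 for ADAMTS20 and 9 for ADAMTS5. ADAMTS4, the other aggrecanase, lay above background throughout at 6.52 ± 0.09 in 2D and 6.47 ± 0.07 in 3D and was not called (adjusted p = 0.491). ADAMTS1, ADAMTS8 and ADAMTS15 were not analysed here.

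The procollagen N-propeptidases, which trim the amino end of fibrillar procollagens, lay at background on all arrays. ADAMTS3 had means of 5.19 in 2D and 5.37 in 3D (limma, adjusted p = 0.029), a call lost without 2D replicate 3 or 5 or 3D replicate 3, 4 or 6. ADAMTS14 had 5.53 and 5.39 without overlap between the groups (adjusted p = 0.020), and ADAMTS2 had 5.39 and 5.40 and was not called. No fold is given for any of the 3.

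Of the 7 remaining ADAMTS proteases, ADAMTS16 alone was called. ADAMTS16, which is expressed in kidney and linked to blood pressure, ranged from 7.05 through 7.09 to 7.21 in 2D and from 6.63 through 6.86 to 7.24 in 3D. The 3D arrays were widely spread, and the highest of all 12 values was 3D replicate 2. The 5′ to 3′ ratio of that array, -0.88, lay within the 2D range of -1.09 to -0.75. The difference was -0.23 ± 0.09 (SE; limma, adjusted p = 0.048). The second probe set fell by 0.16 without overlap between the groups (adjusted p = 0.011). With the ratio in the fit the difference on the brighter probe set was 0.01, and the part of RNA integrity was not tested. The call of ADAMTS16 was also lost when any 1 of 10 arrays was left out, the exceptions being 3D replicates 2 and 5.

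ADAMTS7 and ADAMTS12, which cut cartilage oligomeric matrix protein, each differed by -0.10 and were not called (limma, adjusted p = 0.192 and 0.355). ADAMTS17, a protease tied to fibrillin microfibrils, differed by 0.06 (adjusted p = 0.516), and its other probe set fell by 0.13 (adjusted p = 0.037). ADAMTS18 differed by -0.07 (adjusted p = 0.333), and its other probe set, at background, was called lower (adjusted p = 0.002). ADAMTS6 differed by -0.01 (adjusted p = 0.943), and 0 of its 6 probe sets were called. ADAMTS10, another protease of fibrillin microfibrils, lay above background on 1 of 6 arrays in each group. ADAMTS13 and ADAMTS19 were not analysed here.

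The ADAMTS-like proteins, matrix components without protease activity, split in direction. ADAMTSL5, which binds fibrillin, ranged from 7.69 through 7.75 to 7.84 in 2D and from 7.88 through 7.96 to 8.02 in 3D. The groups did not overlap, and the difference was 0.19 ± 0.05 (SE; limma, adjusted p = 0.003). Quantile normalization ended that call (difference 0.10, adjusted p = 0.120).

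ADAMTSL3, also named punctin-2, fell from 6.35 ± 0.07 to 6.18 ± 0.09 (limma, adjusted p = 0.019). Of its 3 probe sets 2 fell, and the groups overlapped. ADAMTSL1, or punctin-1, fell from 5.87 ± 0.14 to 5.70 ± 0.09 near background (adjusted p = 0.0495), a call lost without any 1 of 9 arrays. ADAMTSL2 and ADAMTSL4, both tied to fibrillin microfibrils, differed by -0.04 and -0.08 and were not called (adjusted p = 0.685 and 0.228).

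Probe sets of the same gene never passed in opposite directions. Of the 73 probe sets, 9 were higher and 17 lower, beside 16.7% and 22.0% of all probe sets. Of the 36 genes, 25 had more than 1 probe set. Among the 10 called genes with more than 1, ADAM21, ADAM28, ADAMTS9 and ADAMTS16 had all of them called the same way. ADAM33, ADAMTS12, ADAMTS17 and ADAMTS18 were not called on their brightest probe set but had another that was. Because 33 of the 73 probe sets carry a suffix for possible hybridisation to related transcripts, and 14 genes are represented by such a one, which relative they read is uncertain.

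**Figure D3:**
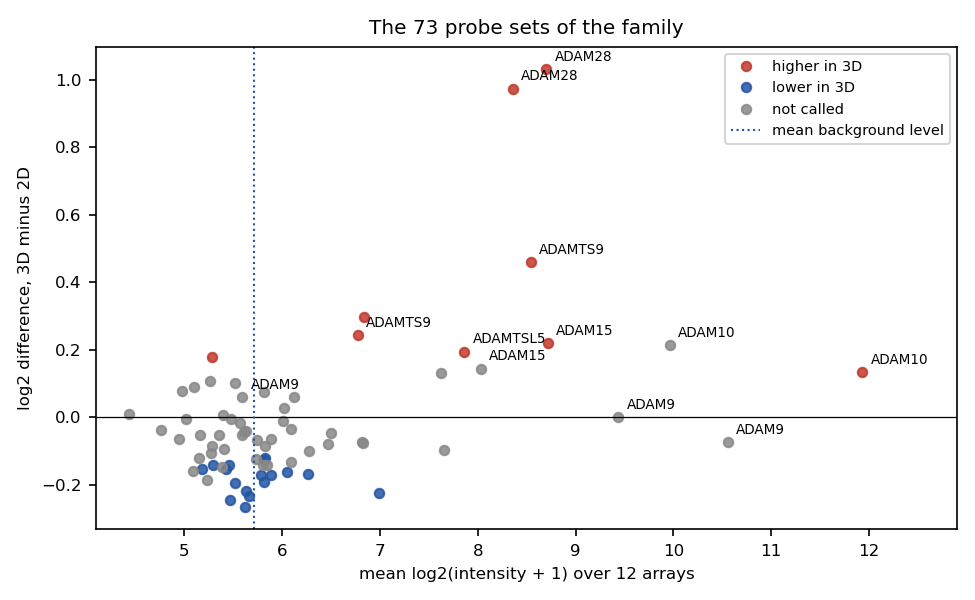
Mean level over all 12 arrays (horizontal axis, log2(intensity + 1)) against the difference between 3D and 2D (vertical axis, log2) for the 73 probe sets of the family, coloured by call. Both probe sets of ADAM28 lie near 1, both of ADAMTS9 lie above 0, and most others lie within 0.3 of 0 at every level.

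Among the regulators and inhibitors of shedding, TIMP1, TIMP3, TSPAN15 and PLK2 changed by more than any protease of the family. Of 32 genes listed, 29 were measured, of which 13 rose and 7 fell. These shares were 44.8% and 24.1%, beside 19.8% and 22.9% of all genes, so the share that fell was near the background. With the 5′ to 3′ ratio in the fit 10 of these 29 were called in either direction. Their median difference was -0.005 and their mean 0.26, opposite in sign because a few large rises stand beside many small changes, where the median of all genes was -0.05.

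Of the TIMPs, 3 were measured and all 3 rose. TIMP3, the matrix-bound inhibitor of ADAM10, ADAM17 and the aggrecanases, ranged from 8.38 through 8.55 to 8.82 in 2D and from 10.58 through 10.90 to 11.01 in 3D. Every 3D array lay above every 2D array, by a difference of 2.27 ± 0.09 (SE; limma, adjusted p = 1.3e-11), a 4.83-fold rise. TIMP1, a soluble inhibitor that also blocks ADAM10, rose from 8.87 ± 0.30 to 11.04 ± 0.08, by 2.16 ± 0.11 (adjusted p = 2.8e-10). TIMP2, which acts mainly on matrix metalloproteinases, rose by 0.20 ± 0.06 with overlapping groups (adjusted p = 0.015), a call that quantile normalization ended (adjusted p = 0.241). With the 5′ to 3′ ratio in the fit TIMP1 and TIMP3 were called again.

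The TspanC8 tetraspanins bind ADAM10, carry it to the surface and direct it to particular substrates, and their 6 members went in both directions. TSPAN15, the partner tied to cleavage of N-cadherin, ranged from 6.11 through 6.59 to 6.66 in 2D and from 7.92 through 8.24 to 8.30 in 3D. TSPAN33, a partner found at epithelial junctions, ranged from 7.64 through 7.78 to 7.83 in 2D and from 6.63 through 6.81 to 6.94 in 3D. Neither gene overlapped between the groups: TSPAN15 rose by 1.70 ± 0.09 (SE; limma, adjusted p = 5.1e-10) and TSPAN33 fell by 0.97 ± 0.06 (adjusted p = 4.6e-09). TSPAN14 also rose, by 0.41 (adjusted p = 0.004), with its lowest 3D value, 5.89, in replicate 2, and with the 5′ to 3′ ratio in the fit it was not called (0.21, adjusted p = 0.397). TSPAN5, TSPAN10 and TSPAN17 were not called, with differences from -0.08 to 0.02.

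**Figure D4:**
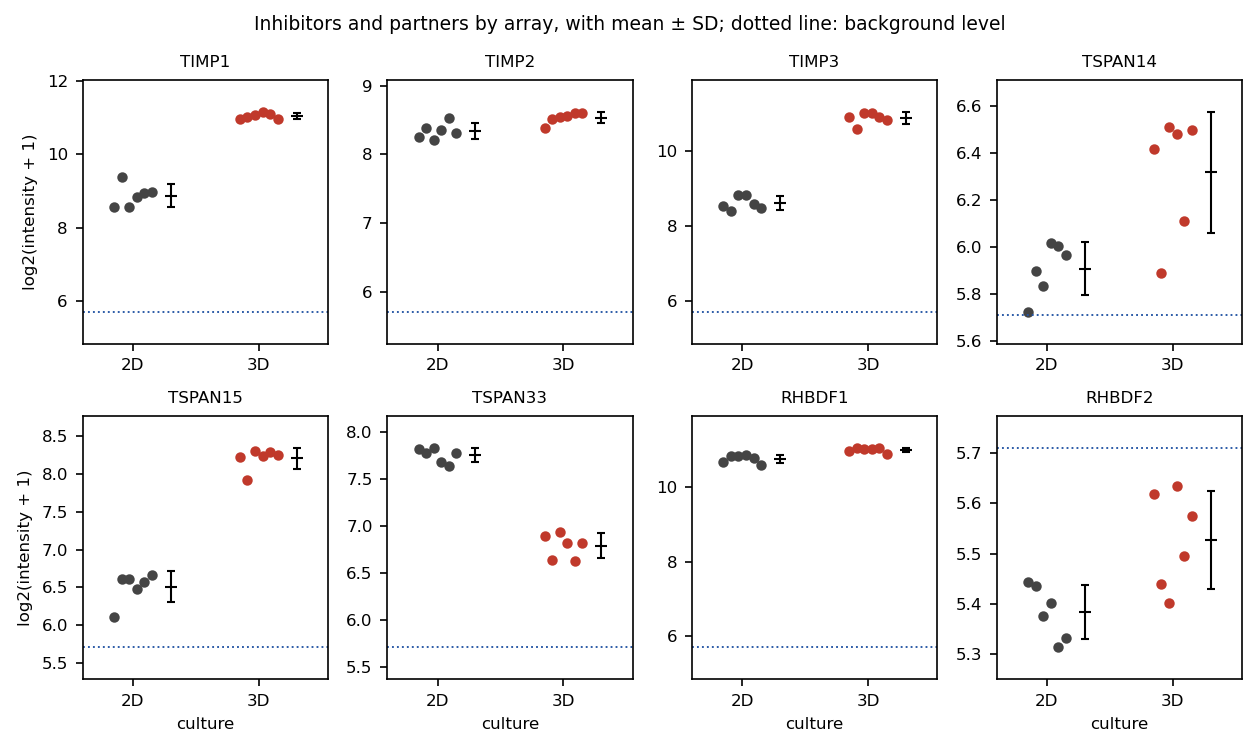
Level on the log2(intensity + 1) scale (vertical axis) on each of the 6 2D and 6 3D arrays for TIMPs, TspanC8 tetraspanins and iRhoms, with mean ± SD beside the points and a dotted line at the mean background level of 5.71. TIMP1, TIMP3 and TSPAN15 lie wholly higher in 3D and TSPAN33 wholly lower, while RHBDF2 stays close to background.

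The iRhoms escort ADAM17 to the cell surface. RHBDF1 (iRhom1) rose from 10.75 ± 0.11 to 10.99 ± 0.06 without overlap (limma, adjusted p = 0.003). RHBDF2 (iRhom2) lay at background on all 6 2D arrays, and its call (adjusted p = 0.037) was lost without any 1 of 7 arrays. FURIN, which removes the prodomain of ADAMs, was not called at 7.51 ± 0.12 in 2D and 7.49 ± 0.07 in 3D (adjusted p = 0.763).

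PLK2, a kinase reported to act on ADAM17, rose by 1.60 ± 0.12 (limma, adjusted p = 2.3e-08), and SH3PXD2B, an adaptor of invadopodia in the list of ADAM partners, by 0.57 ± 0.10 (adjusted p = 2.8e-04). The γ-secretase complex cuts the membrane stubs that shedding leaves, and all 5 of its subunits measured were called, a group singled out after its values were seen, beside 42.7% of all genes in either direction. APH1B fell by 0.29, PSEN2 by 0.23, NCSTN by 0.20 and PSENEN by 0.19, while APH1A rose by 0.26. With the 5′ to 3′ ratio in the fit none of the 5 was called, and NCSTN was not called on the mean of its probe sets either (adjusted p = 0.157).

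Of 51 listed substrates of ADAM10 and ADAM17, 47 were measured, of which 17 rose and 4 fell, with a median of 0.10. These shares were 36.2% and 8.51%, beside 19.8% and 22.9% of all genes. With probe sets that carry a cross-hybridisation suffix left out, 35 substrates remained and 12 were called in either direction, beside 21 with them, and with the 5′ to 3′ ratio in the fit 14 of the 47 were called. NRG1, a ligand of the ErbB3 and ErbB4 receptors, ranged from 7.24 to 7.68 in 2D and from 9.06 to 9.43 in 3D, and rose by 1.74 ± 0.07 (SE; limma, adjusted p = 4.7e-11). On the mean of its probe sets NRG1 rose by 0.83. CD44, the hyaluronan receptor, rose by 1.48 ± 0.07, and ICAM1, an adhesion molecule for leukocytes, by 1.16 ± 0.06. EPHB2 and EFNB1, a receptor and a ligand of cell sorting, rose by 0.88 and 0.83, and EFNB1 by 0.54 with the 5′ to 3′ ratio in the fit.

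CDH1, which encodes E-cadherin, rose from 6.60 ± 0.30 to 7.62 ± 0.51 (limma, adjusted p = 6.9e-04) with overlapping groups. Of the 3D arrays, 5 lay between 7.68 and 8.13, while replicate 2 lay at 6.65. With the 5′ to 3′ ratio in the fit the difference of CDH1 was 0.15 and no longer called (adjusted p = 0.576).

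The ErbB ligands, whose release needs shedding, gave 3 rises and 0 falls among 8. These shares were 37.5% and 0%, beside 19.8% and 22.9% of all genes. Of the 8 ligands, 4 lay above background on all 12 arrays and 2 at or below it on all 12. HBEGF rose from 6.15 ± 0.11 to 6.51 ± 0.12 without overlap (limma, adjusted p = 4.2e-04), a call lost with the 5′ to 3′ ratio in the fit (adjusted p = 0.101). EREG lay at background on all 2D arrays and was at least 1.10-fold higher in 3D (adjusted p = 9.9e-05), and AREG lay at background on all 12 arrays. Of 4 Notch receptors and ligands, NOTCH3 alone was called, as lower (25%, beside 42.7% of all genes in either direction). NOTCH3 fell from 5.83 to 5.63 and lay above background on 5 of 6 2D arrays and 2 of 6 3D arrays. JAG1 had 1 of its 3 probe sets called higher.

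Of 28 ADAMTS substrates and uptake genes, all were measured, 6 rose and 5 fell. These shares, 21.4% and 17.9%, were near the 19.8% and 22.9% of all genes, and with the 5′ to 3′ ratio in the fit 6 genes were called in either direction. Their median difference was -0.06 and their mean 0.06, beside a median of -0.05 over all genes. FN1, which encodes fibronectin, ranged from 11.11 to 11.59 in 2D and from 12.52 to 12.66 in 3D and rose by 1.23 ± 0.07 (SE; limma, adjusted p = 2.4e-09). LTBP1, which anchors latent TGF-β, rose by 1.09, BGN, the small proteoglycan biglycan, by 0.98, and LOX, the collagen cross-linking enzyme, by 0.40. The LOX call was lost with the 5′ to 3′ ratio in the fit (0.26, adjusted p = 0.118), and BGN rose by 0.48 on the mean of its probe sets. COL5A1, a chain of type V collagen, fell by 0.52 (limma, adjusted p = 1.3e-04), or by 0.27 on the mean of its probe sets. FMOD, or fibromodulin, lay at background on all 3D arrays and was at least 1.12-fold lower, a bound against the 3D background. Its 2D mean of 5.83 lay within the 2D background range of 5.67 to 5.91.

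VCAN, which encodes versican, the substrate of ADAMTS9, had 9.82 ± 0.20 in 2D and 9.83 ± 0.15 in 3D and was not called (limma, adjusted p = 0.972). The 95% interval of that difference ran from -0.18 to 0.19. THBS1, which encodes thrombospondin-1, rose by 0.18 (adjusted p = 0.041), a call lost without any 1 of 7 arrays. None of the 4 large proteoglycans was called, and of 5 fibrillar collagen chains COL1A1 and COL5A1 fell. COL1A1 was near background, above it on 5 of 6 2D arrays and 1 of 6 3D arrays.

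**Figure D5:**
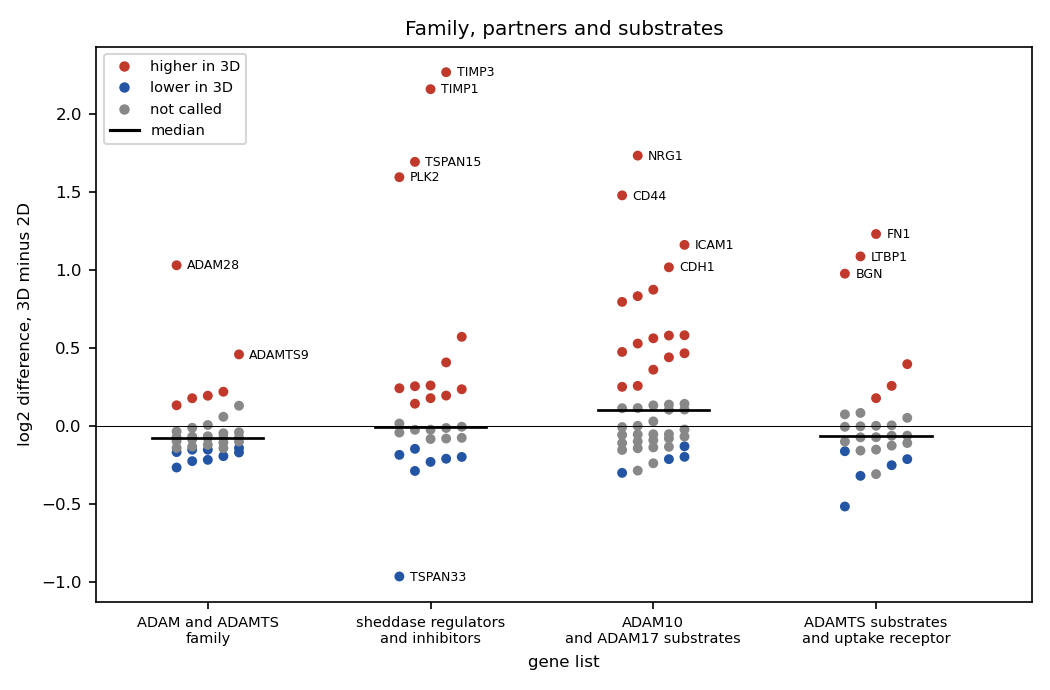
Difference between 3D and 2D on the log2 scale for each gene of the metalloprotease family and of the lists of regulators, shed substrates and ADAMTS substrates, with a bar at the median. The family lies close to its median of -0.08 apart from ADAM28 and ADAMTS9, while the regulators reach from -0.97 to 2.27.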

How the data were processed

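RNA of 12 pools was measured on 1-colour Affymetrix dog arrays. The authors deposited 1 linear intensity per probe set and array; GCRMA is named without a version, per the submitters' processing notes, and neither the probe set definitions nor any scaling step is stated. Median intensity per array was 90.0 to 93.8, so no normalization was added. The group was the single term of a linear model of log2(intensity + 1), run in limma 3.58.1 under R 4.3.3 with empirical Bayes moderation. The 111 control probe sets were left out. Genes were named from the platform annotation: 29254 probe sets named 1 gene, 439 several and 13231 none, and only the first were used. The probe set with the highest mean over 12 arrays stood for a gene. RefSeq UU_Cfam_GSD_1.0 held 35 of the 36 family genes under the same symbol and served for names and gene order, so no coordinates are given.

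Background was the 95th percentile, per array, of 59 control probe sets. A gene at or below it on every array of 1 group is given as a bound against it, and with no fold where both groups lay there. Folds on this scale understate changes of dim genes, and precision is set by how many arrays there are. Every called family gene, every uncalled one with a mean above background, a few fixed names and up to 6 called genes of largest change per list were named; TSPAN14 and the γ-secretase subunits were added after their values were seen. Members, lists and tests were chosen with earlier results of these data known. The fit was tested on simulated data with 50 planted changes per size. It recovered 38% of log2 changes of 0.25, 98% of those of 0.5 and 100% of those of 1 and 2. All other simulated probe sets were unchanged, whereas 16.7% of probe sets were called higher and 22.0% lower in the data. The adjustment of p is stricter where few probe sets change, so these percentages do not give the sensitivity reached here.

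Replicate numbers were not taken as pairs. Same-numbered arrays correlated at 0.0008 to 0.36, with 3 of 6 above 0.1, which does not settle whether they are pairs. The alternatives were quantile normalization, median centring, a filter (log2 above 6 on at least 6 arrays), a trend with robust prior, array weights, a replicate block, a pseudocount of 16, the 5′ to 3′ ratio as covariate, leaving out both outlying arrays or each array, the mean of a gene's probe sets, and no _s_at or _x_at probe sets. Plots used matplotlib 3.10.9 (Python 3.11.15).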

Additional observations from a re-analysis of the deposited data

Results flagged for a closer look

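Within the groups of 6 arrays, 62 groups of 31 named family genes were checked for a single array far from the others, and 4 were found where chance gives about 5% of groups. ADAM9 was lowest in 3D replicate 2, at 10.27, while the other 3D arrays lay between 10.53 and 10.60. ADAM8 was lowest in 3D replicate 6, at 6.66, with the others between 6.78 and 6.84. ADAM33 was lowest in 2D replicate 5, at 7.37, with the others between 7.54 and 7.64. ADAMTS5 was highest in 2D replicate 1, at 5.69, with the others between 5.42 and 5.49, all at background.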

How the results depend on the processing

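Differences here are log2, 3D minus 2D. Direction and call of ADAM28 and ADAMTS9 held under all 23 alternatives, and those of ADAM15 and ADAMTSL5 under all but quantile normalization. With the 5′ to 3′ ratio added, 0 of the 9 lower family genes were called again, while ADAM9 and ADAMTSL2, not called before, were called lower. Called regulators numbered 10 against 20 and called ADAMTS substrates 6 against 11. The added ratio turned ADAM8 to 0.0026, ADAMTS4 to 0.027, ADAMTS6 to 0.0088, ADAMTS12 to 0.17, ADAMTS16 to 0.014, AREG to 0.037 and VCAN to -0.12. Lower family genes numbered 5 with median centring, 2 with the stricter filter, which left 19 family genes to test, and 3 with quantile normalization, under which 3 were higher. Quantile normalization turned ADAMTS6 to 0.046, ADAMTS18 to 0.0043, ADAMTSL2 to 0.020, AREG to 0.014 and VCAN to -0.065, and centring turned ADAMTS6 to 0.013. Array weights turned ADAMTS6 to 0.083 and ADAMTSL2 to 0.0035, and leaving out 2D replicate 6 and 3D replicate 2 together turned ADAMTS6 to 0.13, ADAMTSL2 to 0.012, VCAN to -0.034 and FURIN to 0.00037. The mean of a gene's probe sets turned ADAMTS6 to 0.0033, ADAMTS17 to -0.033 and ADAMTSL2 to 0.020. Without cross-hybridising suffixes ADAM9 was 0.060, ADAMTS6 0.10, ADAMTS17 -0.13 and ADAMTSL2 0.075, and 12 of 35 shed substrates were called against 21 of 47, with fewer genes to test. For the other changes the cause was not tested. Leaving out 1 array at a time gave 5 to 10 lower family genes, -0.058 to 0.10 for ADAMTS6, -0.064 to 0.0094 for ADAMTSL2, -0.059 to 0.0028 for FURIN and -0.048 to 0.071 for VCAN. With the replicate number as a block 4 family genes were higher and 8 lower. Of 12 samples 5 correlated best with their own number, which does not settle whether the numbers mark pairs. Signal near background limits what can be said of the 18 family genes not above it on all arrays.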
